A study of Homo sapiens with 4 samples.

Results

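Sub-population 9 was one of 19 clusters that the authors made from the single-cell transcriptomes of 4 human lung adenocarcinoma lines pooled together. It held 821 of 24441 cells, or 3.36%, the number being recovered from the deposited means. Its members are the cells behind the column headed 9, as the authors clustered them, so no gene that sets it apart can be tested against the cells it was cut from, and all values given here are descriptions. The lines were PC9, which carries an EGFR exon deletion, PC9-BrM4, labelled BM4 and taken from brain metastases of PC9 after repeated selection in mice, and C2 and R2, which were taken from brain metastases of PC9-BrM4 after further rounds in animals given vehicle or the EGFR inhibitor osimertinib, respectively. All 4 were grown for 3 days in culture with no drug, and 1 library was made from each line after several passages had been combined. There were therefore no replicate libraries, and no statistical test could be made between lines or sub-populations.

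Sub-populations 0 and 4 were placed with C2, 1 and 5 with R2, 2 and 3 with PC9, and 6 and 7 with PC9-BrM4, after the text and plots of the study. The tables do not say which library a cell came from. As read from the study's plots, most cells of sub-population 9 were drawn from the PC9-BrM4 library, while the map of cells placed them beside sub-population 0 on the C2 side. The comparisons below ask where the mean transcriptome of these cells lay between the lines, gene by gene.

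The genes given as marks of the group cover 3 functions. Linker histones such as HIST1H1D bind the DNA between nucleosomes, and most are made while DNA is copied. Their transcripts mostly end in a stem-loop without a poly(A) tail, whereas this assay primes on poly(A), so that only the tailed part is counted. BST2, or tetherin, is an interferon-stimulated membrane protein that holds budding viruses on the cell surface, and LCP1, or L-plastin, bundles actin filaments and is best known from white blood cells.

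Levels are mean corrected UMIs per cell, scaled to 1000000 per column and written CPM. Cells of 9 had 14474 corrected UMIs on average, against 14022 to 15409 in sub-populations 0 to 7, and an estimated raw depth of 0.99 relative to the mean of 0 to 7, where these ran from 0.726 to 1.49. The share of mitochondrially encoded transcripts was 18.01%, inside the range of 0 to 7. All 7 epithelial markers were present, with KRT18 at 9585 CPM and EPCAM at 433 CPM. Markers of other cells were near 0, COL1A1 of fibroblasts being at 0.842 CPM, PTPRC of leukocytes at 0.252 CPM and PECAM1 of endothelium at 0.337 CPM. CD68 at 40.6 CPM and MBP at 50.9 CPM, listed for leukocytes and for neural cells, were inside the ranges of 0 to 7.

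BST2 (chromosome 19, bases 17402939 to 17405630, GRCh38) was at 133 CPM in sub-population 9, with a 95% Poisson interval of 127 to 140 CPM that covers counting error only, as do all such intervals here. It was at 137 and 125 CPM in sub-populations 0 and 4 of C2 and at 164 and 149 CPM in 1 and 5 of R2. It was at 27.0 and 26.6 CPM in 2 and 3 of PC9 and at 3.65 and 4.49 CPM in 6 and 7 of PC9-BrM4. Sub-population 9 was thus at the level of C2 for this gene and far above PC9-BrM4.

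LCP1 (chromosome 13, bases 46125920 to 46211871) had the opposite pattern. Its level in 9 was 47.0 CPM, with an interval of 43.1 to 51.0. It was at 1.95 and 2.05 CPM in 0 and 4, at 1.38 and 1.83 CPM in 1 and 5, at 45.2 and 39.7 CPM in 2 and 3, and at 72.8 and 77.1 CPM in 6 and 7. For LCP1, sub-population 9 stood with PC9 and apart from C2 and R2. The same cells therefore carried, in their mean, 1 gene at the C2 level and another at the PC9 level.

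**Figure D1:**
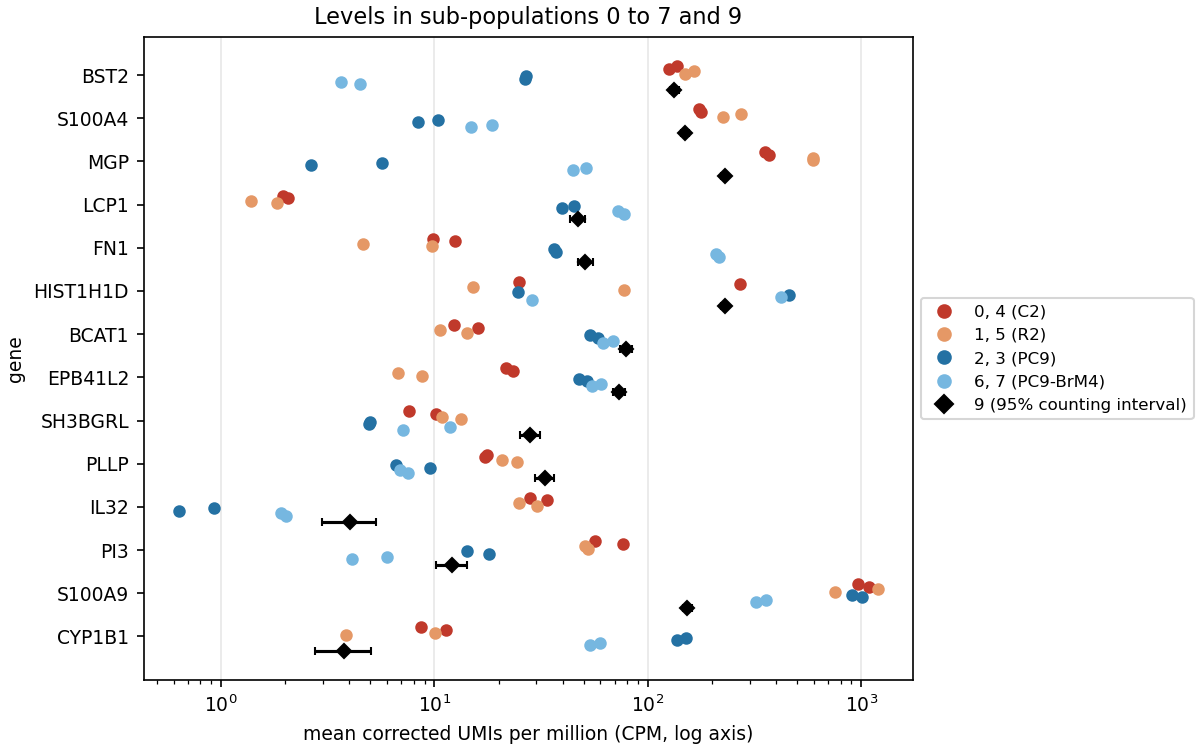
Levels of 14 genes (rows) in mean corrected UMIs per 1000000 on a log axis, with 1 point for each of sub-populations 0 to 7, coloured by line, and a diamond with its 95% counting interval for 9. BST2 of 9 lay with C2 at 133 CPM, LCP1 with PC9 at 47.0 CPM, and S100A9 at 153 CPM lay below all 8 other columns.

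HIST1H1D (chromosome 6, bases 26234212 to 26234987), the leading histone gene, was at 229 CPM in 9, with an interval of 221 to 238. It differed within each line, at 25.01 and 271 CPM in 0 and 4, 15.1 and 76.9 CPM in 1 and 5, 24.6 and 459 CPM in 2 and 3, and 420 and 28.6 CPM in 6 and 7. The level of 9 was high but below 3, 4 and 6, which were also the columns with the most G2/M transcripts. None of the 3 given marker genes lay outside the range of 0 to 7.

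HIST1H1B, HIST1H1E and HIST1H1C, also replication-dependent linker histones, were high and low in the same columns as HIST1H1D. Their promoters are shown for that reason. HIST1H1A, another linker histone, is not shown and had an effect of -0.98 against 4, the lowest of 7 measured linker histones. HIST1H1B was at 114 CPM in 9 and at 7.36 to 331 CPM in 0 to 7, HIST1H1E at 109 CPM against 7.99 to 245 CPM, and HIST1H1C at 144 CPM against 35.1 to 282 CPM. H1FX, a linker histone that is made throughout the cycle, had an effect of -0.01 against the mean of 0 to 7, where HIST1H1D had 1.47. Each sequence below runs from 250 bases before to 50 after the start of the gene, from RefSeq on GRCh38.p14, with matches to AAACACA, the H1 box of linker histone promoters, and to CCAAT and TATAA in capitals, on either strand. TATAA can overlap its own reverse complement.
HIST1H1D, chr6:26234938-26235237, minus strand: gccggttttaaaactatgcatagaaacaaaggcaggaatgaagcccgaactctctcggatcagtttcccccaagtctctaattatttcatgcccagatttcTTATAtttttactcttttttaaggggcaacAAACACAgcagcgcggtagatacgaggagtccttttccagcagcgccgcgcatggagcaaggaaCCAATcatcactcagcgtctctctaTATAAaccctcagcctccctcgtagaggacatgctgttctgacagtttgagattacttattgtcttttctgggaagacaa
HIST1H1B, chr6:27867539-27867838, minus strand: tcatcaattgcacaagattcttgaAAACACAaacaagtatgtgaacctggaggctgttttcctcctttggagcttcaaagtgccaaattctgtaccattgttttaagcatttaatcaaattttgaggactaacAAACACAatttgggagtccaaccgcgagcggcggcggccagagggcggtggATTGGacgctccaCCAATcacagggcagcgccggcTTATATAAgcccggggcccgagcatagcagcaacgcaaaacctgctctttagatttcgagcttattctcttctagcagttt
HIST1H1E, chr6:26156079-26156378, plus strand: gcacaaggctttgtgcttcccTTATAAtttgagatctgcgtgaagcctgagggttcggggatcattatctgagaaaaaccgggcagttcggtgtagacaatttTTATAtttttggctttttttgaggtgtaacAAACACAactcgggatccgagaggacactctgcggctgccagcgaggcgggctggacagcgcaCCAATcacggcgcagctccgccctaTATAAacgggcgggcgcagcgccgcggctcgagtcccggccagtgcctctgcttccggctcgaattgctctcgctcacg
HIST1H1C, chr6:26056421-26056720, minus strand: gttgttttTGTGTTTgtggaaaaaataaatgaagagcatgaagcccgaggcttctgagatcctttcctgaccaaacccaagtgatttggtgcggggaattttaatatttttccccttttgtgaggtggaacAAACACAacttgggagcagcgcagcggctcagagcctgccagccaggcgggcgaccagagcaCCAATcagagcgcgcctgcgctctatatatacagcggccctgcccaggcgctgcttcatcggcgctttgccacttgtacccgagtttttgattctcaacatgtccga
H1FX, chr3:129316237-129316536, minus strand: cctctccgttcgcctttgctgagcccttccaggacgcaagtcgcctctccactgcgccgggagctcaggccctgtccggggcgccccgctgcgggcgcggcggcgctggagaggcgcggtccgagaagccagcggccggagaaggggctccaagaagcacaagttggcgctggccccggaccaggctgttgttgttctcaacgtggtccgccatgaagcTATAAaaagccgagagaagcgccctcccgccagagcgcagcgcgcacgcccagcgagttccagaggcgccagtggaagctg

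All 4 promoters shown from chromosome 6 held AAACACA and CCAAT, and that of H1FX held neither. Of 35116 promoters in the table, 5.64% held AAACACA, 34.6% CCAAT and 20.4% TATAA. A match is a string of letters in this window and no evidence of binding. AAACACA is a known part of linker histone promoters, so its presence in them is no result of these data. The coding parts of linker histone genes are alike, so that reads could be split between them, and the values of single genes are uncertain in that respect.

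Across the cell cycle lists, sub-population 9 was in the middle of the 8 large columns. Linker histones summed to 729 CPM in 9 and to 164 to 1463 CPM in 0 to 7, with 5 of the 8 columns below 9. S phase genes summed to 2973 CPM against 2162 to 3159 CPM, with 6 of 8 below, and G2/M genes to 6055 CPM against 3739 to 9347 CPM, with 4 of 8 below. MKI67, a proliferation antigen, was at 226 CPM against 60.2 to 373 CPM, and TYMS, which makes thymidylate for DNA synthesis, at 190 CPM stood just above the 184 CPM of the highest column. The phase of single cells cannot be read from means.

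**Figure D2:**
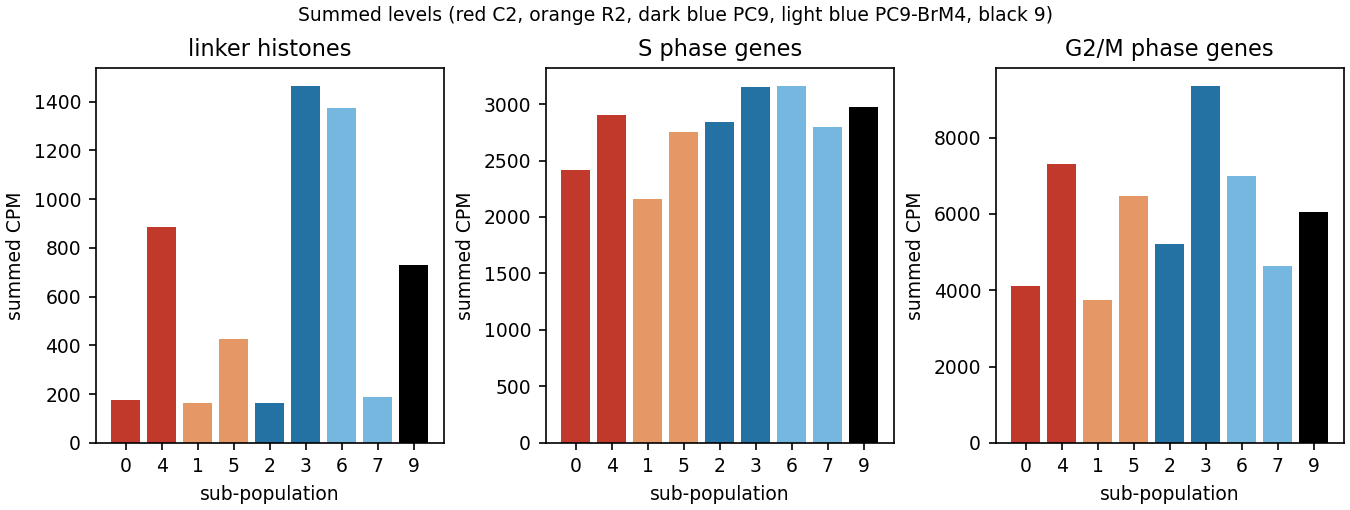
Summed CPM (vertical axis, from 0) of linker histones, S phase genes and G2/M phase genes in sub-populations 0 to 7 and 9 (bars). In all 3 lists 9 lay inside the range of the other columns, at 729, 2973 and 6055 CPM.

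Against the mean of sub-populations 0 to 7, the effect of a gene was the difference of log2(CPM + 5), and a gene was called if its effect was at least 1 in size and its level lay outside all 8 columns. Of 7406 genes at 10 CPM or more, 5 were called higher (0.0675%) and 2 lower (0.027%). The 8 columns span all the lines, so a profile between them would give few calls. The count therefore does not show how close 9 was to any of these columns. The median effect of all genes was 0.07. The level of 6657 genes, or 89.9%, was inside the range of 0 to 7, that of 618 was above it and that of 131 below it.

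The genes called higher were SH3BGRL, BCAT1, EPB41L2, TNIK and PLLP. Of the 7 genes called in either direction, 5 were called alike in the table of uncorrected counts. BCAT1, the cytosolic enzyme that starts the breakdown of branched-chain amino acids, was at 78.7 CPM in 9, with an interval of 73.7 to 83.9. It was at 10.6 to 16.01 CPM in the columns of C2 and R2 and at 53.6 to 68.7 CPM in those of PC9 and PC9-BrM4, and had an effect of 1.28, or 0.75 in the table of uncorrected counts, where it was not called. EPB41L2, which links the membrane to spectrin and actin, was at 73.5 CPM against 6.73 to 60.1 CPM and had an effect of 1.25. Both were thus highest in 9 and next highest in PC9-BrM4.

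TNIK, a kinase that acts on TCF4 in Wnt signalling, was at 26.5 CPM against 1.45 to 20.3 CPM, with an effect of 1.19. SH3BGRL, a small protein of the thioredoxin-like fold, was at 28.2 CPM (25.3 to 31.4) against 4.95 to 13.4 CPM, and had an effect of 1.29, with no column of either side near its level. PLLP, plasmolipin, a membrane protein, was at 32.9 CPM against 6.60 to 24.3 CPM, with its next highest levels in R2 and an effect of 1.10. PLLP and TNIK were the called genes nearest the threshold. Just outside it were PPP1R9A, neurabin, at 0.996, and YES1, a SRC-family kinase, at 0.96.

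Those called lower were S100A9 and CYP1B1. S100A9, a subunit of the calcium-binding protein calprotectin, was at 153 CPM (146 to 160) in 9, at 963 and 1092 CPM in 0 and 4, at 1195 and 757 CPM in 1 and 5, at 902 and 1013 CPM in 2 and 3, and at 359 and 321 CPM in 6 and 7. It had the lowest effect of all, -2.26, and the column next to 9 was 7 of PC9-BrM4. CYP1B1, a cytochrome P450 induced through the aryl hydrocarbon receptor, was at 3.79 CPM (2.76 to 5.07) against 3.86 CPM in 5 of R2, 8.65 to 11.3 CPM in 0, 1 and 4, and 53.8 to 151 CPM in the columns of PC9 and PC9-BrM4. Its interval covered the level in 5, so that the lowest place was not settled. The effect of CYP1B1 was -2.01, or -4.39 in the table of uncorrected counts. The nearest genes outside the threshold were AL161431.1 at -0.82 and FYB1, an adaptor protein, at -0.79.

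KRT13, a keratin of stratified epithelia that the study follows, was too low to count as measured. At 12.7 CPM in 9 (10.8 to 14.9) and 1.55 to 5.14 CPM in 0 to 7 it had an effect of 1.19, and with no filter it was the only gene added to the calls.

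The effect against the mean of 0 to 7 moved with the length of the transcript. Over 7356 genes Spearman's rho was 0.27, a description across genes of the same cells, and the median effect ran from 0.0027 in the shortest of 4 equal groups of genes to 0.13 in the longest. Against sub-populations 0 and 4 the same rho was 0.01 and against 6 and 7 it was -0.04. The part of length in the calls was not tested.

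On the genes that separated C2 and R2 from PC9 and PC9-BrM4, sub-population 9 had median positions between them. Of 7397 genes, 105 (1.42%) were higher in 0, 1, 4 and 5 than in 2, 3, 6 and 7, with a mean difference of at least 1 and no overlap, and 76 (1.03%) were lower. A position of 1 stands for the mean of the first group and 0 for that of the second. Over the 105 higher genes, the median position of 9 was 0.69, and its quartiles were 0.54 and 0.85. In 64 of them the level of 9 was strictly between the ranges of the groups, in 35 it was in or past the first, and in 6 in or past the second.

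The genes with the largest difference show that spread. MGP, matrix Gla protein, an inhibitor of calcification, was at 230 CPM in 9, at 353 to 595 CPM in 0, 1, 4 and 5 and at 2.66 to 51.6 CPM in 2, 3, 6 and 7, a position of 0.77. S100A4, a calcium-binding protein tied to metastasis, was at 150 CPM against 173 to 273 CPM and 8.38 to 18.6 CPM, a position of 0.87. IL11, a cytokine of the IL-6 family, had a position of 0.65, SFTA1P, a surfactant-associated pseudogene, 0.72, KRT23 0.55 and RAMP1, a subunit of the CGRP receptor, 0.72. BST2 was the furthest over of these, at 0.97.

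Other genes of the same set were nearer to PC9 and PC9-BrM4. IL32, a cytokine, was at 4.04 CPM (2.98 to 5.36), against 24.8 to 33.7 CPM in C2 and R2 columns and 0.633 to 2.03 CPM in the others, a position of 0.21. PI3, or elafin, had a position of 0.11, PLCG2, a phospholipase, 0.03, and MAGEA1, a cancer-testis antigen, 0.01. SLPI, a secreted protease inhibitor, was at 134 CPM against 320 to 373 CPM and 119 to 229 CPM, a position of -0.26. At the other end was GNG11, a G-protein gamma subunit, at 1.23.

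Over the 76 lower genes the median position was 0.55, with quartiles of 0.37 and 0.69. This median was on the side of PC9 and PC9-BrM4, at 0.41, 0.48 and 0.48, with a pseudocount of 20, a filter of 50 CPM and a larger size, respectively, and was 0.74 in the table of uncorrected counts, so that no side can be named for these genes. The level of 9 was between the ranges in 50, in or past that of C2 and R2 in 14 and in or past that of PC9 and PC9-BrM4 in 12. ALDH3A1, an aldehyde dehydrogenase, had a position of 0.69, SOX4, a transcription factor, 0.73, and ALCAM, an adhesion molecule, 0.55. LCP1 was at 0.08, BCAT1 at -0.19, EPB41L2 at -0.26 and BDNF, a neurotrophin, at -0.19, on the PC9 side, while CYP1B1 was at 1.20. FN1, fibronectin, was at 0.28, with 50.9 CPM in 9, 36.2 and 37.1 CPM in 2 and 3, and 208 and 215 CPM in 6 and 7.

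**Figure D3:**
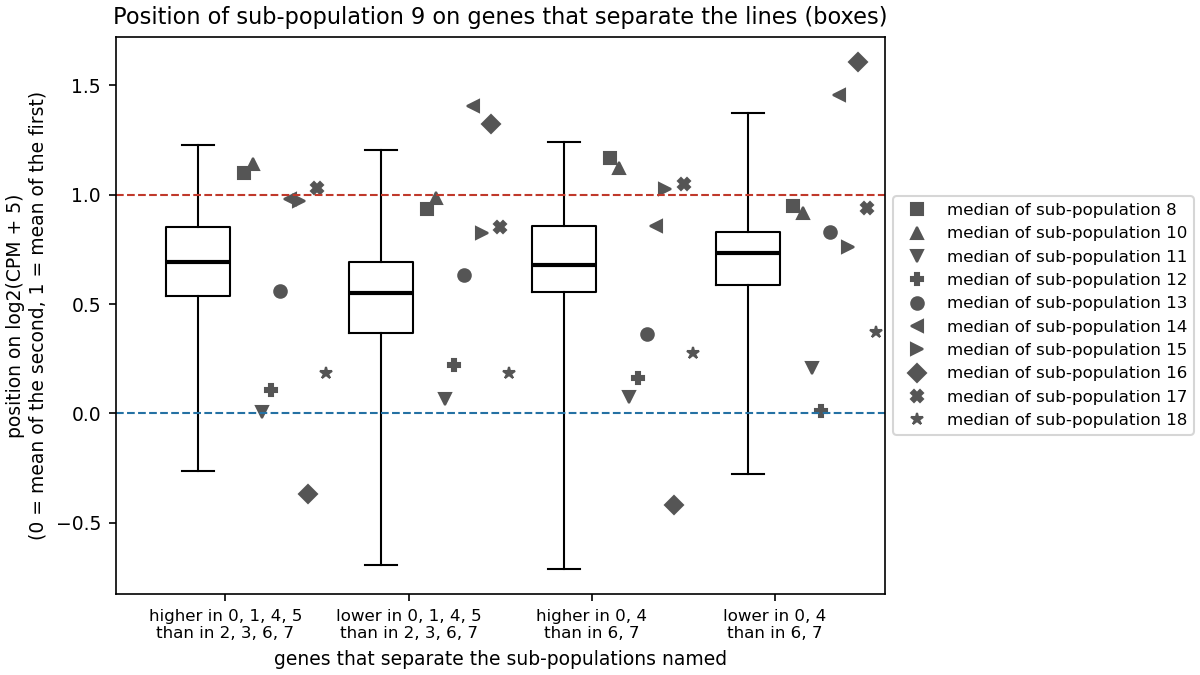
Position (vertical axis, 0 the mean of the second group and 1 that of the first, on log2(CPM + 5)) of sub-population 9 over 4 sets of genes that separate the lines. Boxes give median and quartiles, whiskers the lowest and highest gene, and small marks the medians of sub-populations 8 and 10 to 18. The medians of 9 were 0.69, 0.55, 0.68 and 0.73, and those of 13 were 0.56, 0.63, 0.36 and 0.83.

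Intermediate levels of such genes are part of the rule by which the group was described, so these positions are no support for its name. Among the smaller sub-populations the medians of 8, 10 and 17 over the 105 genes were 1.10, 1.14 and 1.03, and those of 11, 12 and 18 were 0.01, 0.11 and 0.18. Sub-population 13 was also in the middle, at 0.56, with an estimated raw depth of 0.16, while 14, 15 and 16 were at 0.98, 0.97 and -0.37. Single genes of 9 nonetheless ran from -0.26 to 1.23 in the higher set and from -0.69 to 1.20 in the lower, so that the same intermediate place was not taken by all.

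Between C2 and PC9-BrM4 alone, 129 genes (1.74%) were higher in 0 and 4 than in 6 and 7, and 57 (0.771%) were lower. Sub-population 9 had median positions of 0.68 and 0.73 on them, and 104 and 46 of the genes lay strictly between the ranges. In these sets BST2 was at 1.01 and S100A4 at 0.93, LCN2, a siderophore-binding lipocalin, at 0.62, FN1 at 0.52 and LCP1 at 0.18. S100A9 was at -0.71, below both lines. FDPS, an enzyme of the mevalonate pathway, was at 0.81, and TAGLN2, an actin-binding transgelin, at 1.15.

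On the finer contrast of C2 with R2, at a size of at least 0.5, 723 genes (9.77%) were higher in 0 and 4 than in 1 and 5 and 60 (0.811%) were lower. The median positions of 9 were 1.10 and 0.76, and 557 of the 723 were in or past the range of C2. Sub-populations 2, 3, 6 and 7 had medians of 1.07, 1.19, 1.08 and 0.93 on the same 723 genes, so that a place beside C2 was also one beside PC9 and PC9-BrM4, and R2 stood apart from all of them. Of PC9-BrM4 against PC9, 53 genes (0.717%) were higher in 6 and 7 than in 2 and 3 and 293 (3.96%) lower, and the medians of 9 were 0.99 and 0.74, on the side of PC9-BrM4. The first of these had quartiles of 0.25 and 1.63 and was 0.19 in the table of uncorrected counts. Sub-populations 0, 1, 4 and 5 had medians of 0.92, 0.60, 0.88 and 0.89 on the 53 genes. On the 293 their medians were 0.78, 0.93, 0.55 and 0.68. The side of PC9-BrM4 was therefore shared by the columns of C2 and R2.

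Ranked over 9567 genes, the profile of 9 was most like those of 4 and 0, with Spearman's rho of 0.982 and 0.980, followed by 17 at 0.968 and 6 at 0.967. The lowest of the large columns was 1 of R2, at 0.954. These are correlations across genes in means from 1 pooled normalisation. When the levels in 9 were fitted as a sum of the 8 large columns with no negative weight, 55.7% of the weight fell on C2 columns, 31.5% on PC9-BrM4, 9.93% on PC9 and 2.85% on R2. The fit left 98.7% of genes within 0.5 on the log2 scale. With no fit, the middle 95% of effects against the mean of 0 to 7 ran from -0.32 to 0.44. The share within 0.5 therefore says little about the weights. The largest excesses over the fit were SH3BGRL (1.19), BCAT1 (1.06), PLLP (1.06) and TNIK (1.02). The largest shortfalls were S100A9 (-2.34), CYP1B1 (-2.33), PI3 (-1.44) and IL32 (-1.39). A weighted sum of means describes the column only. The treatment of doublets is not given in the sources used here, no caller can be run on means, and the part of doublets in the intermediate levels was not tested.

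Against sub-population 4, the nearest in profile, 7 of 7521 genes were called higher by size alone (0.0931%) and 28 lower (0.372%). The higher were LCP1 at 2.88, BCAT1 at 1.99, FN1 at 1.67, EPB41L2 at 1.46, BDNF and TNIK at 1.23 each, and SH3BGRL at 1.12. BCAT1 was at 0.93 in uncorrected counts, below the size for a call. FN1 was at 12.5 CPM in 4, and BDNF at 5.89 CPM in 4 and 20.6 CPM in 9. All but SH3BGRL were higher in each of 2, 3, 6 and 7 than in 4.

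The lower genes were led by S100A9 at -2.80, PI3 at -2.26, IL32 at -2.10, PLCG2 at -1.72, MAGEA1 at -1.69 and AREG at -1.43. AREG, a ligand of EGFR, was at 45.8 CPM in 9, 132 CPM in 4, and 42.7 and 22.5 CPM in 6 and 7. SUN3, GABBR2, SLPI and TNFAIP3, the last an inhibitor of NF-kB signalling, had effects of -1.36, -1.31, -1.30 and -1.28. HLA-B, which presents antigen, was among the 28, and so was TOP2A, a topoisomerase of dividing cells, at -1.07, or 0.05 in the table of uncorrected counts. With 1 column on each side, these calls rest on size only.

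Against 0 and 4 together, 10 of 7291 genes were called higher (0.137%) and 15 lower (0.206%), led by LCP1 at 2.89, BCAT1 at 2.13 and FN1 at 1.79, and by S100A9 at -2.70, PI3 at -2.06 and IL32 at -1.99. PPP1R9A at 1.17, ANKRD2 at 1.04 and SELENOS, just past the threshold, were added to the higher genes. SELENOS is a selenoprotein of the endoplasmic reticulum membrane.

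Against 6 and 7 of PC9-BrM4 the difference was wider, with 63 of 7354 genes called higher (0.857%) and 17 lower (0.231%). BST2 led at 3.93, then S100A4 at 2.83, CDC42EP5, an effector of CDC42, at 2.21, MGP at 2.15, SFTA1P at 2.09 and PDLIM4, which binds actin stress fibres, at 2.03. MGP was at 0.51 in uncorrected counts and not called there. HSPB1, a small heat shock protein, at 1.52 and AXL, a receptor kinase, at 1.18 were also called. AXL was at 20.3 CPM in 9, 19.96 and 28.6 CPM in 0 and 4 and 6.22 and 6.08 CPM in 6 and 7. The lower genes were led by CYP1B1 at -2.81, FN1 at -1.95, OLFML3, an extracellular olfactomedin, at -1.63, TAGLN2 at -1.31 and SOX4 at -1.27.

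Gene lists placed 9 on different sides for different functions. The MetRes signature, 255 genes that the study chose on these samples and therefore no independent evidence, had a median effect of 0.41 against 6 and 7, where 216 of 237 measured genes were above 0 and 34 were called higher and 1 lower, beside a median of 0.06 over all genes. Against 0 and 4 its median was -0.15, with 178 of 253 genes below 0 and 11 called lower, beside 0.10 over all genes. Against the mean of 0 to 7 it was 0.09, and -0.07 in the table of uncorrected counts. Of all genes, 59.3% were above 0 against 6 and 7, with 0.857% called higher and 0.231% lower. Against 0 and 4, 28.2% of all genes were below 0 and 0.206% were called lower.

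Of 54 interferon-stimulated genes, 19 were measured and the median against the mean of 0 to 7 was -0.0015, with 9 above 0. Without correction the list had a median of -0.17, with 4 of 22 above 0. BST2 at 1.46 was the exception, and none of the 19 was called. IFI35 was at -0.47 and ADAR, an RNA editing enzyme, at -0.30. Against the mean of 0 to 7, 65.8% of all genes were above 0 and 34.2% below. MHC class I genes had a median of -0.12, with 12 of 15 below 0, led by PSMB9, a proteasome subunit of antigen processing, at -0.52 and TAPBP, or tapasin, at -0.52, and none was called.

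The actin list, which holds LCP1, had 31 of 34 measured genes above 0 against the mean of 0 to 7, with a median of 0.22, beside 65.8% of all genes above 0. In the table of uncorrected counts this was lost, with 17 of 36 above 0 and a median of -0.0057. MSN, moesin, which ties actin to the membrane, was at 681 CPM in 9, 873 and 782 CPM in C2 and 251 and 316 CPM in PC9-BrM4, and its effect against 6 and 7 was 1.26, or 0.21 in the table of uncorrected counts. CALD1, caldesmon, at 191 CPM was above all of 0 to 7, which ran from 79.1 to 183 CPM, though not in the table of uncorrected counts, where its effect was -0.01. MYL12A, a myosin light chain, was also above the range, at 514 CPM against 227 to 428 CPM. Caveola genes had a median of 0.27, or 0.11 in the table of uncorrected counts, and CAV1 at 280 CPM stood above the 170 to 254 CPM of 0 to 7.

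S100 proteins and annexins summed to 8406 CPM in 9, below the 9647 to 12203 CPM of 0 to 7. Their median was -0.17, with 12 of 18 below 0. S100A9, S100A14 and S100A4 lie on chromosome 1 between 150 and 160 Mb. In that stretch 79 of 84 measured genes were below 0, with a median of -0.24. The part of the stretch in the values of this list was not tested. S100A4 at 1.33 and S100A9 at -2.26 were the extremes, and S100P, at 60.7 CPM, was below all of 0 to 7, which ran from 65.3 to 205 CPM. Of 80 ribosomal protein genes 76 were below 0 against the mean of 0 to 7, with a median of -0.12, and 74 were below 0 against 6 and 7, with a median of -0.19. Without correction, 67 and 45 of 76 were below 0. Of all genes with correction, 34.2% were below 0 against the mean of 0 to 7 and 40.7% against 6 and 7.

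Some other lists differed as well. Against 0 and 4, the EGFR family and its ligands had a median of -0.39, with 4 of 5 genes below 0. Keratins had a median of -0.25 there, with 11 of 12 below 0. In each of these lists 1 gene was called lower, beside 0.206% of all genes. Genes of cholesterol synthesis and uptake had a median of -0.29 against 6 and 7, with 13 of 15 below 0 and 2 called lower. These 2 were FDPS at -1.22 and SQLE, squalene epoxidase, at -1.09. Of all genes, 40.7% were below 0 in that comparison and 0.231% were called lower. Outputs of RAS-MAPK signalling had a median of -0.23 against 0 and 4, with 11 of 12 below 0, beside 28.2% of all genes. None was called. Targets of YAP and TEAD had medians of -0.20 against 0 and 4 and 0.12 against 6 and 7, with ANKRD1 at -0.70 and 1.30. Apart from S100A9, which is also in the MetRes signature, no member of any list was called against the mean of 0 to 7.

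**Figure D4:**
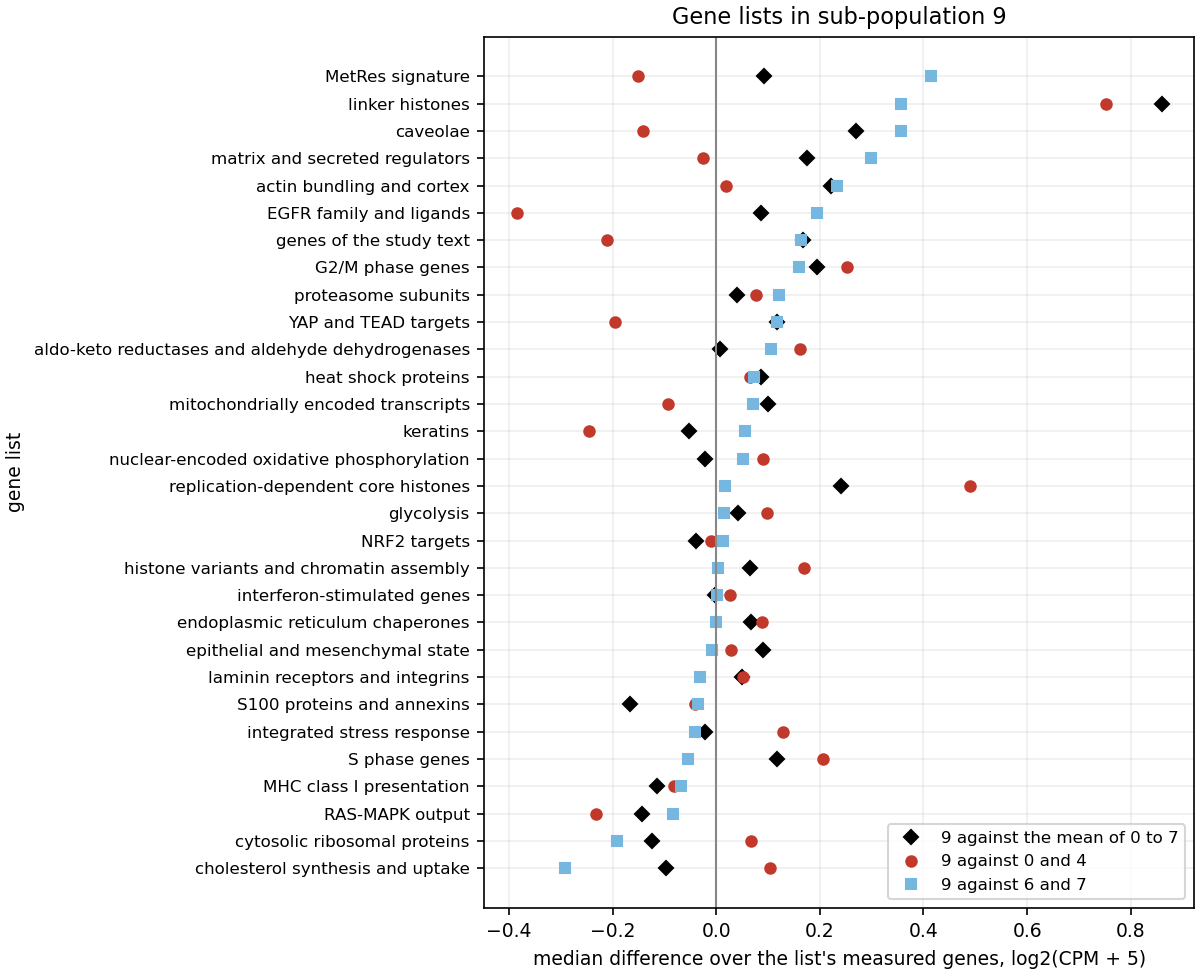
Median effect (horizontal axis, log2(CPM + 5)) of each gene list with at least 3 measured genes (rows), for 9 against the mean of 0 to 7, against 0 and 4, and against 6 and 7. The MetRes signature lay at -0.15 and 0.41 in the last 2, and linker histones had the largest median against the mean of 0 to 7, 0.86.

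Of the genes that the study follows, EGFR was at 342 CPM in 9, 471 and 513 CPM in C2 columns, 275 and 328 CPM in R2, 192 and 185 CPM in PC9, and 299 and 310 CPM in PC9-BrM4. PRNP, the prion protein, was at 140 CPM against 168 and 158 CPM in C2 and 71.1 and 76.4 CPM in PC9-BrM4. FOSL1, a subunit of AP-1, was at 67.9 CPM, inside the range of 30.8 to 107 CPM, with an effect of 0.13. In the table of uncorrected counts its effect was 1.14 and it was called higher. ITGA6, ITGA2 and ITGB1, integrin subunits that bind laminin among other ligands, had effects of 0.37, 0.06 and 0.24 against the mean of 0 to 7, and RHOA and RHOC of 0.11 and -0.07, all inside the range. ITGB1 was at -0.48 in the table of uncorrected counts. ITGA3, another integrin subunit, had the lowest effect of 11 measured laminin receptors and integrins, -0.20, or -0.61 in uncorrected counts. SRF at 2.69 CPM was too low to be measured.

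Mitochondrially encoded transcripts did not all lie at one place. MT-ND1, a subunit of complex I, was at 15533 CPM in 9, 9246 and 8995 CPM in 0 and 4, and 18317 and 19144 CPM in 6 and 7. MT-ND2, another subunit, was at 8044 CPM in 9, inside the 7846 to 8674 CPM of the same 4 columns. MT-ND6, which is read from the other strand, was at 384 CPM against 273 and 234 CPM in C2 and 339 and 393 CPM in PC9-BrM4. Values of MT-ND1 and MT-ND2 had overflowed in the table of uncorrected counts and could not be compared there.

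In a few stretches of the genome nearly all measured genes differed in the same direction. Of 238 bins of 10 Mb, 6 had all genes above 0 against 0 and 4 and 5 had all below, and of 236 bins 6 and 11 did so against 6 and 7. In bins of 10 Mb with at least 10 measured genes, the median effect against 0 and 4 was between -0.15 and 0.21 in the middle 90% of 238 bins. The lowest bin was on chromosome 7 between 140 and 150 Mb, at -0.64 with 19 of 19 genes below 0, among them PDIA4, an endoplasmic reticulum chaperone, NDUFB2 of complex I and MRPS33 of the mitochondrial ribosome. Next was chromosome 7 between 40 and 50 Mb, at -0.43 with 26 of 29 below 0, led by SUN3, STK17A, UPP1, INHBA and PPIA. Over all genes, 28.2% were below 0 and 71.8% above it.

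The highest bins in that comparison were the first 10 Mb of chromosome 12, at 0.34 with 42 of 42 genes above 0, and its stretch between 20 and 30 Mb, at 0.30 with 21 of 23 above 0. The former held CDCA3, PTMS, ATN1 and NINJ2, and the latter BCAT1, so that a gene called alone above lies among neighbours that differ the same way. BCAT1 at 2.13 was nevertheless far from the median of its bin, and INTS13, a subunit of the integrator complex, was at 0.57. In the first 10 Mb, the median level against the mean of 0 to 7 was 0.13 in 9 and -0.30 and -0.07 in 0 and 4. There 9 was inside the range of 0 to 7, with 3 at 0.20. Between 20 and 30 Mb the level of 9, 0.23, was above all of 0 to 7, the highest being 0.15 in 6.

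Against 6 and 7 the highest bins were on chromosome 22, between 10 and 20 Mb at 0.96 with 14 of 14 genes above 0, and between 20 and 30 Mb at 0.65 with 39 of 39. MIF, a cytokine from the second of these, was at 336 CPM in 9 and at 121 and 128 CPM in 6 and 7, an effect of 1.40, or 0.94 in the table of uncorrected counts. The lowest bin was on chromosome 1 between 150 and 160 Mb, at -0.65 with 87 of 89 below 0, where S100A9, S100A14, TAGLN2, FDPS and RPS27 lie, followed by that between 140 and 150 Mb at -0.47 with 14 of 14. Of all genes 40.7% were below 0 and 59.3% above it in this comparison. S100A4 lies in the same stretch as S100A9, at base 153543613 of chromosome 1, and was at 2.83.

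**Figure D5:**
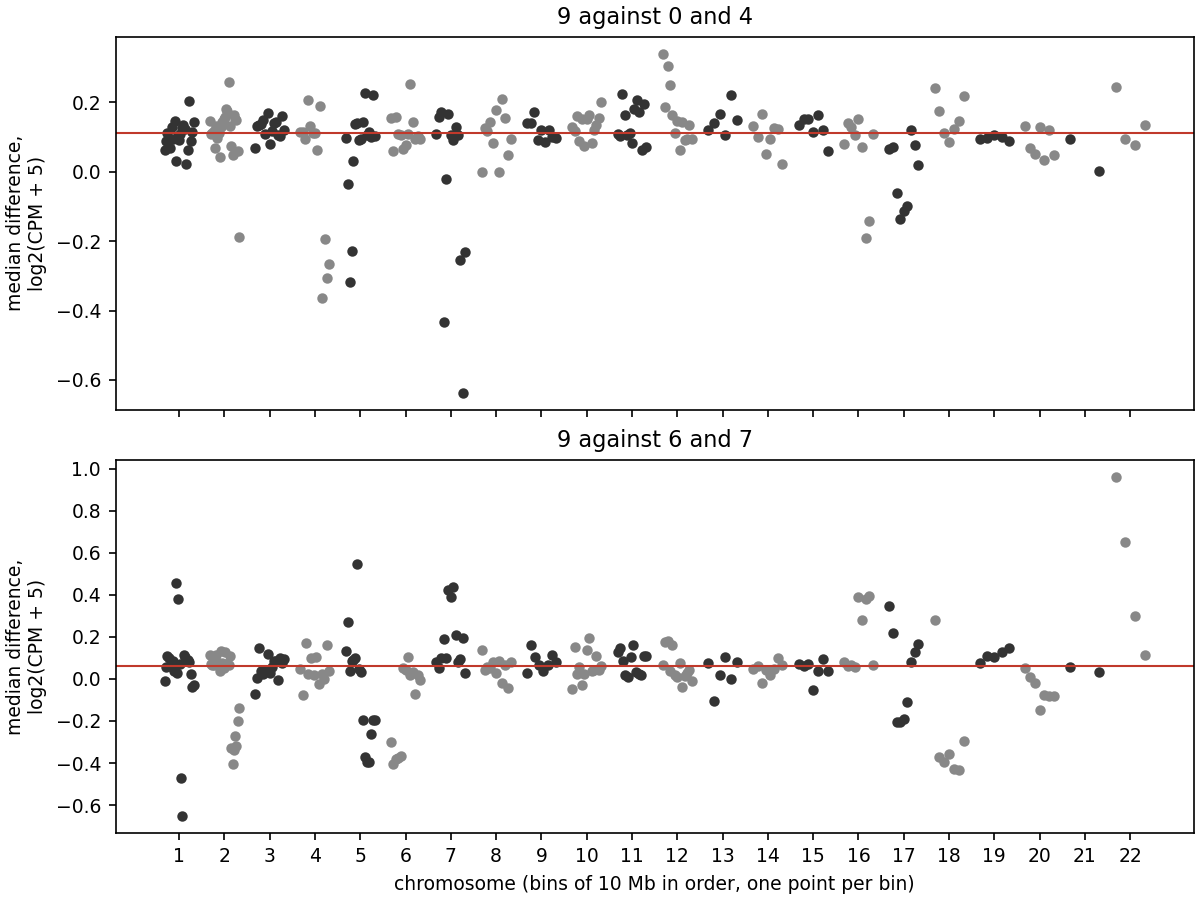
Median difference (vertical axis, log2(CPM + 5)) of 9 against 0 and 4 and against 6 and 7 in bins of 10 Mb (points), in chromosome order (horizontal axis), with the median of all bins as a line. Chromosomes 4, 5, 7 and 12 stood out in the first at -0.64 to 0.34, and chromosomes 1 and 22 in the second at -0.65 and 0.96.

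For each bin the level of 9 was then set on the line from PC9-BrM4 at 0 to C2 at 1, in a description added after the data were seen. In 39 bins C2 and PC9-BrM4 differed by at least 0.3 in their median, 14 being higher and 25 lower in C2. The median position of 9 was 0.71, with 16 bins above 0.75, 20 from 0.25 to 0.75 and 3 below 0.25. For sub-population 8 the median was 1.14 and for 17 it was 0.96.

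The bins nearest to PC9-BrM4 were on chromosome 5 between 30 and 40 Mb at 0.10, on chromosome 4 between 140 and 150 Mb at 0.21, and on chromosome 7 between 140 and 150 Mb at 0.25. On the first, PC9 columns were at -0.08 and 0.04 and R2 columns at -0.06 and 0.18, so that C2 stood apart. On the second, PC9 columns were at 0.95 and 1.28 and R2 columns at 0.31 and 0.84. On the last, the median level against the mean of 0 to 7 was -0.24 in 9, 0.26 and 0.43 in 0 and 4, and -0.39 and -0.49 in 6 and 7. On chromosome 22 between 10 and 20 Mb the position was 1.26, and on chromosome 5 between 70 and 80 Mb 1.57. In the latter the median level of 9, 0.42, was above that of all of 0 to 7, the highest of which was 0.31 in 4, and FCHO2 and TNPO1 lie there.

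The first 10 Mb of chromosome 18, with YES1, USP14, NDC80 and MYL12A, was another stretch at which 9 was highest. Its median was 0.40 over 23 genes, all above 0, where 4 had 0.26 and 6 had 0.19. Against the mean of 0 to 7, 65.8% of all genes were above 0. Of 170 measured genes on chromosome 22, 18.8% were above the range of 0 to 7, and of 478 on chromosome 17, 7.95% were below it, beside 8.34% and 1.77% over all genes. KRT19 at 2341 CPM against 2469 to 4286 CPM and RPL23 at 727 CPM against 839 to 1250 CPM were among the genes of chromosome 17 below the range. What these regional differences reflect was not tested.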

How the data were processed

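The authors made 1 single-cell 3′ RNA library from each of PC9, BM4, C2 and R2, and per the labels and methods processed them with Cell Ranger on hg38 and Seurat 3. The 2 deposited tables give 19 columns, each a mean over the cells of a sub-population pooled from 4 libraries. In the first, the authors deposited means of depth-corrected UMI counts, a signal that gave whole numbers when multiplied by the cells. In the other, they deposited means of e to the power of the count, less 1, of uncorrected counts, of which 140 values in 20 genes had overflowed. These were turned into mean counts, assuming Poisson counts, and divided by an estimated relative depth. Columns were rescaled to 1000000 (CPM). Effects are differences of log2(CPM + 5) in genes with a mean of 10 CPM or more. A call needed a size of 1 and a level outside all compared columns. No p-value was computed, since each line had 1 library. Intervals are exact 95% Poisson intervals of summed corrected UMIs. Genes of the corrected table were placed by GENCODE 44 on GRCh38, 16343 of 19973 matching, 505 of them by an older symbol. Named genes were the given markers, the called genes with the largest effects, those with the largest line contrasts, the leading members of lists and bins, and genes of the study's text. The code was tested on simulated data (Python 3.11.15, numpy 2.4.6, pandas 2.3.3, scipy 1.17.1). Alternatives were the uncorrected table, other pseudocounts, filters and sizes, and leaving out each column. The members and lists were chosen with earlier results of these data known. A few genes are not reported here.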

Additional observations from a re-analysis of the deposited data

How the results depend on the processing

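A count or value was taken as unmoved if it stayed within 1.5 times its main value. In the table of uncorrected counts, calls higher and lower went from 5 and 2 to 29 and 27 against the mean of 0 to 7, from 7 and 28 to 37 and 101 against 4, from 10 and 15 to 50 and 73 against 0 and 4, and from 63 and 17 to 114 and 136 against 6 and 7. There, HIST1H1D against 4 was 0.27 in place of -0.24, BST2 against 0 and 4 was -0.074 in place of 0.02, the median of the MetRes signature against the mean of 0 to 7 was -0.067 in place of 0.09, and the median position on genes higher in PC9-BrM4 than PC9 was 0.19 in place of 0.99. With a pseudocount of 1, calls were 11 and 44 against 4, with 25 lower against 0 and 4 and 45 lower against 6 and 7. With a pseudocount of 20 they were 0 higher against the mean of 0 to 7, 4 and 8 against 4, 4 and 7 against 0 and 4, and 25 and 8 against 6 and 7. With a filter of 50 CPM they were 0 and 1, 0 and 9, and 0 and 6 in the first 3 comparisons, with 22 higher against 6 and 7, where no filter gave 96. At a size of 0.5 they were 68 and 18, 61 and 226, 79 and 123, and 443 and 267. Leaving out each of columns 0 to 7 gave 5 to 7 higher and 2 lower. The weight on PC9 was 0% in place of 9.93% on plain CPM. Of the other values, the median positions on genes that separate the sides ran from 0.56 to 0.73 and from 0.41 to 0.74. The causes were not tested, and the lower genes of C2 against R2 gave no value at the larger size, where no genes were left. No paired analysis was possible because there was a single library of every line and no column has a replicate number. The depth behind column 9, 821 cells, left named genes at 10 CPM or more with intervals of 6.75% of their level to either side in the median.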
